A study of Mus musculus with 35 samples.

Results

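The thyroid axis genes of the hypothalamus were taken by name from the count tables: Trh, Trhr, Dio2, Dio3, Thra, Thrb, Hr and Pgpep1, which are 8 of the 49568 gene names counted. All 8 names were present, and 7 passed the filter on low counts. Dio3 did not, and was tested only without that filter. Polyadenylated RNA was sequenced from a dissected block holding the hypothalamus, giving 35 libraries from male B6/J mice sampled at Zeitgeber time 16, that is 16 h after lights-on. Controls comprised 10 libraries from mice with free access to food and 10 from mice fasted for the 16 h since lights-on. PER2-S662D mice carry an aspartate at a phosphorylated serine of the clock protein PER2, and gave 5 fed and 5 fasted libraries. A further 5 fasted libraries were labelled Per2 knockout, a genotype with no fed counterpart here. The labels do not say that each library is a separate mouse, so p-values measure the spread between these samples. The labels state neither age, nor how either mutant was made, nor any allele of the controls beyond the word control.

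The hypothalamic thyroid axis starts with thyrotropin-releasing hormone (TRH), a short peptide that neurons of the paraventricular nucleus cut from the Trh precursor and release towards the pituitary, where TRH receptors (Trhr) drive the release of thyrotropin. Inside the brain, type 2 deiodinase (Dio2) of tanycytes and astrocytes converts thyroxine to the active hormone triiodothyronine, and type 3 deiodinase (Dio3) inactivates both. Triiodothyronine binds the nuclear receptors encoded by Thra and Thrb. Hairless (Hr) is a corepressor of these receptors and a classical triiodothyronine-induced gene of the brain. Pgpep1 encodes a cytosolic peptidase that removes the pyroglutamyl residue with which TRH begins. Tanycytic Dio2 and Dio3 are known for their part in seasonal responses to day length, and Dio2 for its response to food deprivation.

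The tissue label was checked against 12 hypothalamus markers. All 12 had enough counts to be tested, and their summed level was 519.5 to 756.3 CPM over the libraries (counts scaled to a common library size). Assigned counts per library were 17959586 to 37027342. Choroid plexus markers (7 genes) summed to between 23.7 and 1552 CPM, so some blocks carried more of that tissue than others. Genes listed as thalamus markers (6 genes) summed to 868.7 to 1170.9 CPM. Those listed for striatum and amygdala (6 genes) summed to 106.4 to 199.1 CPM. The levels below are those of the whole block, and the part of each tissue in them was not tested. Per2 itself was not lower in the mice labelled Per2 knockout: the lowest, median and highest of these 5 libraries were 28.2, 29.5 and 33.4 CPM, against 26.1, 29.0 and 33.1 CPM in fasted controls. Its log2 fold change was 0.06 (adjusted p 0.935, edgeR). The counts cover the whole gene, so a deletion of part of it was not examined, and these are called the libraries labelled Per2 knockout throughout. In S662D mice Per2 was lower than in controls. The log2 fold change was −0.59 fed and −0.55 fasted (edgeR adjusted p 1.18e-07 and 6.8e-07). Library numbers of controls 1 to 5 and of controls 6 to 10 form separate ranges, as do those of each mutant, and 6 of the 10 S662D libraries carry an additional final digit in that number whose meaning is not stated. The 2 sets of controls and the 2 kinds of S662D library are therefore also given apart.

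Thra was the most abundant member per length. Its median over the 35 libraries was 99.0 CPM per kilobase of exon, with a range of 82.6 to 113.5. Trh followed at 37.7 (26.9 to 47.1) and did not overlap Thra in any library. Hr was next at 10.4 CPM per kilobase, with a range of 5.17 to 22.8, the widest among the tested members as a ratio of highest to lowest. Dio2 had a median of 4.83 (3.43 to 7.83), Thrb of 3.79 (3.21 to 4.85) and Pgpep1 of 3.07 (2.42 to 3.80). Over all libraries the ranges of Hr and Dio2 overlapped, as did those of Dio2, Thrb and Pgpep1. Within each of the 5 groups, however, Hr lay above Dio2 in its whole range (5.17 to 8.26 against 3.43 to 5.14 in fed controls). Dio2 and Thrb overlapped within both fed groups and not within the fasted ones, and the same held for Thrb and Pgpep1. Trhr lay below them at 1.86 CPM per kilobase (1.43 to 2.24), below Pgpep1 in its whole range. Dio3 was close to nothing, with 0 to 9 counts per library. Among the 18063 genes tested, 97.8% had a lower median level per kilobase than Thra, 92.5% than Trh, 72.6% than Hr and 34.6% than Trhr.

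**Figure D1:**
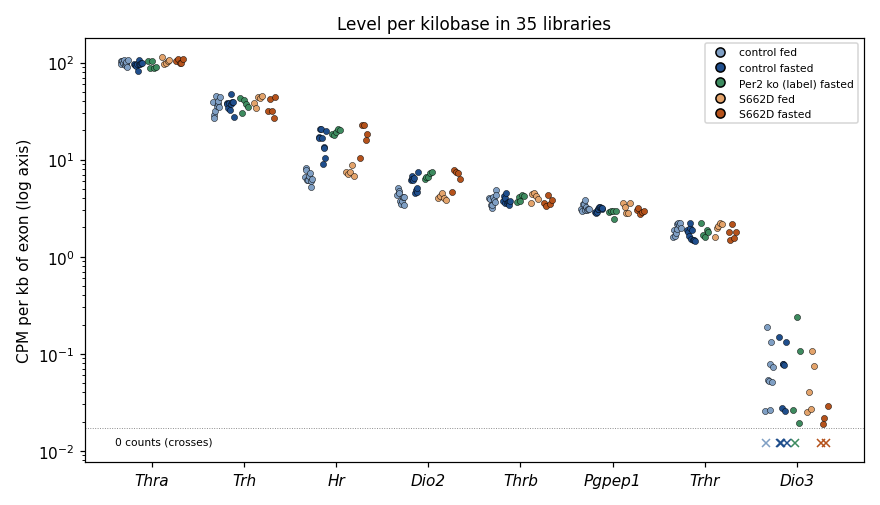
Level per kilobase of exon (CPM per kb, log axis) of the 8 genes in each of the 35 libraries, coloured by group. Points are libraries and crosses are libraries with 0 counts. Thra (82.6 to 113.5) and Trh (26.9 to 47.1) stand above the other genes, and Dio3 lies far below them.

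Fasting was the comparison in which members changed. Hr, the corepressor (chromosome 14, 70552212 to 70573548, plus strand, GRCm38), rose in both genotypes tested. The lowest, median and highest of 10 fed controls were 35.8, 44.6 and 57.2 CPM, and those of 10 fasted controls were 62.2, 116.3 and 141.8 CPM. No fasted control lay as low as the highest fed one, a separation seen in 0.515% of the 18063 genes. Mean levels were 46.1 ± 6.43 CPM fed and 108.8 ± 28.2 CPM fasted (SD, n = 10 each), a 2.36-fold rise with a 95% interval of 1.94 to 2.87. On the log2 scale the change was 1.24 (SE 0.14), with a Benjamini-Hochberg adjusted p of 3.31e-07 from the quasi-likelihood test of edgeR. By size it ranked 39 among the 18063 genes. Of the 7 tested members 2 were called higher in each genotype at an adjusted p below 0.05, and none lower. In controls 3.88% of all genes were called (2.2% higher), and in S662D mice 2.64% (1.8% higher).

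In S662D mice the fed libraries 1 to 5 held 51.8, 48.8, 51.0, 61.0 and 46.8 CPM of Hr, and the fasted ones 71.6, 157.5, 157.4, 109.9 and 128.4 CPM. Fasted replicate 1 was the lowest of its group and still above every fed library. Groups of these 2 sizes separated in this way for 3.3% of all genes. The change was 1.27 on the log2 scale (SE 0.19, edgeR adjusted p 7.42e-05). The responses of the 2 genotypes differed by 0.03 on the log2 scale, with a 95% interval of −0.45 to 0.51 (adjusted p 0.989). None of 18063 genes was called in this test of the difference (0.0%), though 486 of 17775 were, members not among them, when controls 1 to 5 alone were used.

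Hr rose in both sets of controls. Fasted controls 1 to 5 held 116.3 to 141.8 CPM. Fasted controls 6 to 10 held 62.2, 92.6, 91.5, 72.0 and 135.1 CPM, so that only replicate 10 reached the range of the first set. Controls 1 to 5 gave a rise of 1.39 (SE 0.18, adjusted p 6.70e-06) and controls 6 to 10 one of 1.05 (SE 0.18, adjusted p 0.000928), in fits that called 8.28% and 3.04% of all genes. The difference of −0.34 between the sets had an adjusted p of 0.417 in edgeR. In S662D libraries without the additional digit the rise was 1.02, which was not called (adjusted p 0.358 with 2 libraries a group, where 0.0531% of all genes were). In those with it the rise was 1.39 (adjusted p 0.000494, where 3.86% were).

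**Figure D2:**
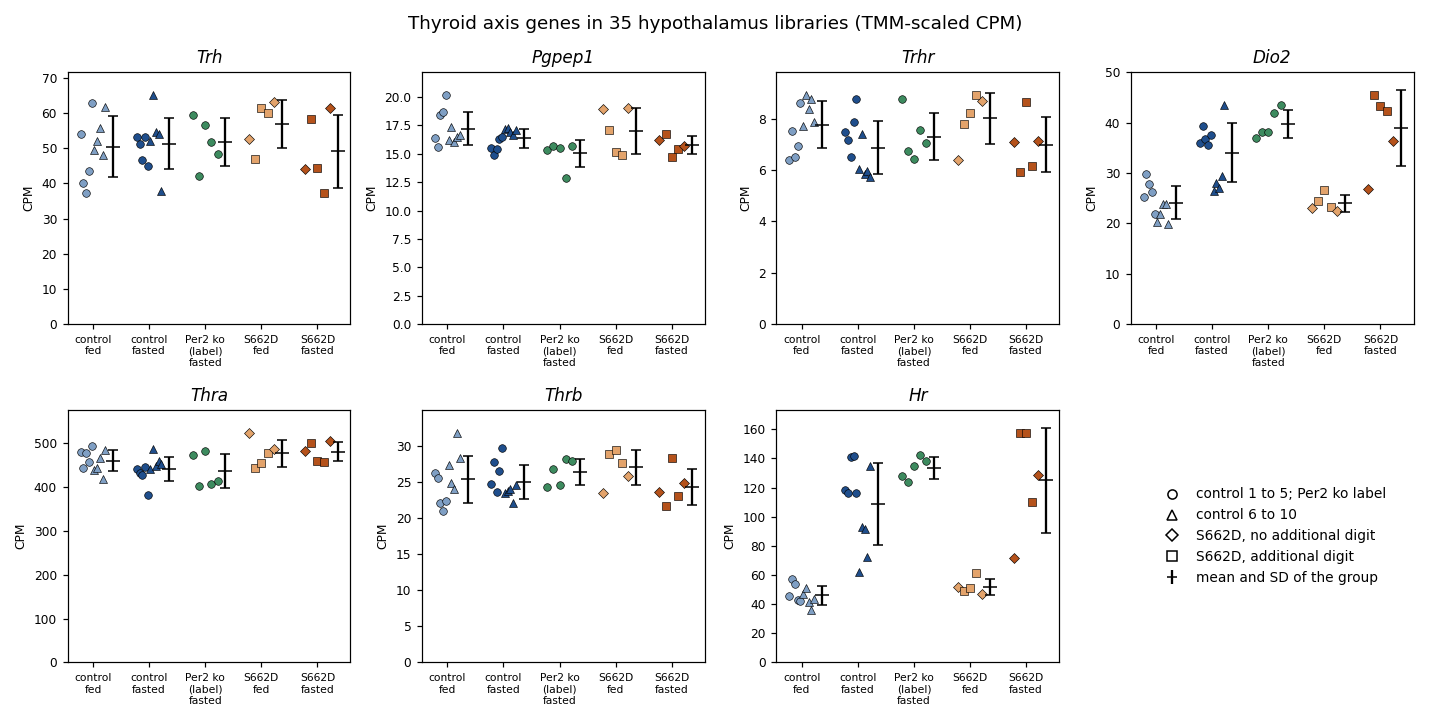
Level (TMM-scaled CPM) of the 7 tested genes in every library by group. Points are libraries, marker shapes give the library sets, and the bars to the right of each group are its mean and SD. All fasted libraries lie above all fed ones for Hr within controls (as for 0.515% of all genes) and within S662D mice (3.3%). Dio2 is higher in most fasted libraries than in the fed ones.

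Dio2, the activating deiodinase (chromosome 12, 90724554 to 90738438, minus strand), was the other member that rose on fasting. Fed controls held 19.9, 23.9 and 29.9 CPM as the lowest, median and highest of 10, and fasted controls 26.5, 35.8 and 43.6 CPM. The groups overlapped: fasted replicates 6, 7, 8 and 9, at 26.5 to 29.4 CPM, lay within the range of the fed mice, and the other 6 lay above it. The means were 24.1 ± 3.24 and 34.0 ± 5.85 CPM (SD, n = 10 each), a 1.41-fold rise with a 95% interval of 1.24 to 1.61 (log2 fold change 0.50, SE 0.09, edgeR adjusted p 0.00053).

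In S662D mice the Dio2 groups did not overlap, a separation seen in 3.3% of all genes. Fed libraries 1 to 5 held 23.1, 24.4, 26.6, 23.2 and 22.5 CPM and fasted libraries 26.9, 45.5, 43.4, 42.3 and 36.4 CPM. All 5 fasted libraries lay above all 5 fed ones, by a narrow margin in fasted replicate 1. This was a 1.62-fold rise (log2 fold change 0.70, SE 0.13, edgeR adjusted p 0.000722). It exceeded the rise in controls by 0.20, which was not called, with a 95% interval of −0.12 to 0.52 (adjusted p 0.832).

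The rise in Dio2 was close in the 2 sets of controls. It was 0.50 (SE 0.12, adjusted p 0.006) in controls 1 to 5 and 0.49 (SE 0.12, adjusted p 0.0174) in controls 6 to 10 when all libraries shared 1 fit. Fitted without controls 1 to 5, the second value was 0.49 with an adjusted p of 0.0514. Controls 6 to 10 minus controls 1 to 5 gave −0.25 fed and −0.26 fasted, neither of them called (adjusted p 0.348 and 0.163, where 0.0% and 6.02% of all genes were). In S662D libraries with the additional digit the rise was 0.82 (adjusted p 0.000649), and in those without it 0.48, which was not called (adjusted p 0.802). The counts are of bulk tissue, in which more cells of a type and more RNA per cell cannot be told apart.

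Tanycytes and astrocytes are the cells known to make Dio2, so their markers were read beside it. Of 7 tanycyte markers, 0 were called higher and 1 was called lower on fasting in each genotype. The one that fell was Nes, an intermediate filament gene of tanycytes and vessels, which changed by −0.60 in controls (adjusted p 0.000127) and by −0.56 in the mutants (adjusted p 0.0158). The summed tanycyte markers were 77.2 to 96.7 CPM in fed and 71.8 to 86.9 CPM in fasted controls. Rax, a transcription factor that defines tanycytes, was present at a median of 0.929 CPM in fed and 0.825 CPM in fasted controls. Of 6 astrocyte markers, Aldh1l1 (0.20) and Agt (0.25) rose in fasted controls and Aqp4, the water channel of astrocyte endfeet, fell (−0.33), and only Aldh1l1 was called in S662D mice (0.19). The astrocyte sum was 1244 to 1337 CPM in fed and 1257 to 1423 CPM in fasted controls. The part of these cells in the rise of Dio2 was not tested.

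The bases before the Dio2 and Trh start sites are shown because these genes, the activating enzyme and the peptide at the head of the axis, differed in their response. RefSeq entries for GRCm38.p6 held upstream sequence for 5 of the 8 genes (Trh, Dio2, Dio3, Thrb, Pgpep1). Each line is 250 bases, 5′ to 3′ on the gene's strand and ending just before the start site, in lower case with the motif matches in capitals.
Dio2, chr12:90739039-90739288, minus strand: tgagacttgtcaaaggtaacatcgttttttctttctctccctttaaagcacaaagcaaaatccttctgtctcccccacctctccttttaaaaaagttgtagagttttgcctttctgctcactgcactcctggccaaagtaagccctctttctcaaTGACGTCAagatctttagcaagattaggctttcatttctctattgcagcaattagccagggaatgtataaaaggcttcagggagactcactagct
Trh, chr6:92244651-92244900, minus strand: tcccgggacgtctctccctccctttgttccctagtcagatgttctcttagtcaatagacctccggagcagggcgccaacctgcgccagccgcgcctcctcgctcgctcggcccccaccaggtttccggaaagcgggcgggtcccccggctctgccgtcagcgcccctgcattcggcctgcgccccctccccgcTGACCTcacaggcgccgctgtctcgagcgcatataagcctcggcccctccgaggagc
The capitals in Dio2 are TGACGTCA, the full cyclic AMP response element, which begins 95 bases before the start site and reads the same on both strands. Of 32851 upstream windows of this length in the table, 1.55% held it. Those in Trh are AGGTCA read on the opposite strand, the core bound by thyroid hormone receptors and by ROR proteins, beginning 57 bases before the start site. It occurred in 14.0% of windows. The E-box CACGTG (6.02% of windows), the direct repeat of AGGTCA spaced by 4 bases (0.0152%) and the palindromic glucocorticoid response element (0.00913%) were searched on both strands and were in neither sequence. These matches describe letters only, and no binding was measured. The RefSeq start of Dio2 lies 600 bases outside the gene as counted in the deposited tables, so that stretch was not part of its counts. Its counted exons share 100 bases (1.72%) with Gm26512, a gene with a median of 1.62 CPM in fed and 1.58 CPM in fasted controls.

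Hr and Dio2 also varied together within groups. After the mean of each group was subtracted, their log2 CPM correlated with a Pearson r of 0.740 over the 35 libraries, the highest of the 21 pairs among the 7 tested members. Trhr and Thrb followed at 0.530. The points share libraries, so anything that moves a whole library enters these values, and they are given as a description. Fasted controls 6, 7, 8 and 9 and fasted S662D replicate 1 were low in both genes, and fasted control 10 was high in both within its set.

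**Figure D3:**
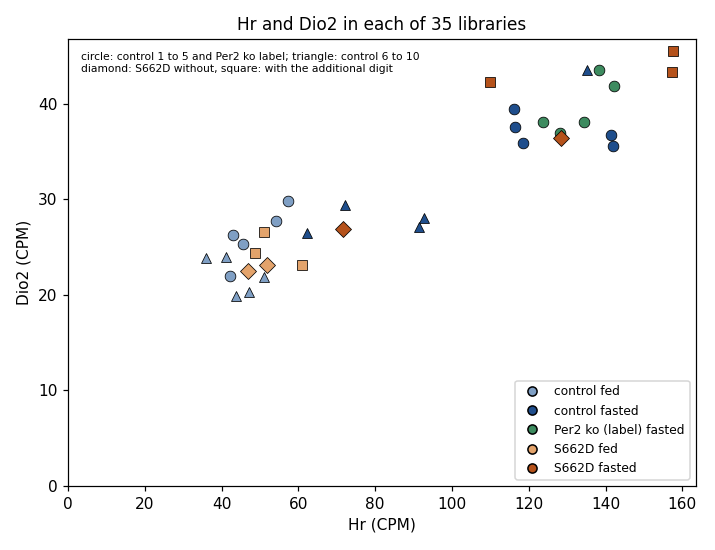
Hr against Dio2 (CPM) in each of the 35 libraries, coloured by group with marker shapes for the library sets. Fed libraries lie at the lower left, and 5 fasted libraries (controls 6 to 9 and S662D replicate 1, with 62.2 to 92.6 CPM of Hr) lie between them and the other fasted libraries.

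On the peptide side of the axis, no gene was called on fasting. Trh, the TRH precursor (chromosome 6, 92242061 to 92244650, minus strand), had a lowest, median and highest value of 37.3, 50.8 and 62.9 CPM in fed controls and 37.9, 52.7 and 65.2 CPM in fasted controls. The 2 ranges coincided almost entirely. The change was 0.02 on the log2 scale (SE 0.10, edgeR adjusted p 0.970), with a 95% interval of −0.18 to 0.23, that is from 0.880 to 1.17 of the fed level. In S662D mice fed libraries held 52.6, 47.1, 61.3, 60.2 and 63.0 CPM and fasted ones 44.2, 58.4, 44.3, 37.2 and 61.4 CPM. Here the log2 fold change was −0.20 (adjusted p 0.549, interval −0.49 to 0.08). The block holds TRH neurons beyond the paraventricular nucleus, and the counts do not separate them.

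Trhr, the TRH receptor (chromosome 15, 44196135 to 44235912, plus strand), had 106 to 186 counts per library in controls. It had a median of 7.79 CPM in fed and 6.84 CPM in fasted controls, with ranges of 6.40 to 8.91 and 5.70 to 8.74 that overlapped. Neither −0.18 in controls (SE 0.09, edgeR adjusted p 0.354) nor −0.20 in S662D mice (SE 0.12, adjusted p 0.456) was called. The 2 sets of controls differed from each other. In controls 6 to 10 Trhr fell, from a mean of 8.32 to 6.19 CPM (n = 5 each, log2 fold change −0.43, adjusted p 0.0233). In controls 1 to 5 it was 7.19 CPM fed and 7.55 CPM fasted (0.07, adjusted p 0.759). The difference of −0.50 between the sets had an adjusted p of 0.0347 in edgeR, in a test that called 10.6% of all genes.

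Pgpep1, a TRH-degrading peptidase (chromosome 8, 70646435 to 70660388, minus strand), was not called either. The medians were 16.5 CPM in fed and 16.6 CPM in fasted controls, with a log2 fold change of −0.07 (interval −0.18 to 0.04, edgeR adjusted p 0.660). In S662D mice it was −0.11 (adjusted p 0.543).

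The receptor genes were not called on fasting either. Thra (chromosome 11, 98740638 to 98769006, plus strand), which encodes the main thyroid hormone receptor of the brain, held 418.0, 462.4 and 495.2 CPM as lowest, median and highest in fed controls and 381.3, 444.8 and 486.8 CPM in fasted controls. These ranges overlapped over most of their length. With the highest counts of the members, Thra was also the most precisely measured: fasting gave −0.06 on the log2 scale in controls (SE 0.04, adjusted p 0.579, interval −0.14 to 0.02) and 0.01 in S662D mice (SE 0.06, adjusted p 0.960). Its exons share 263 bases, 5.7% of its length, with Nr1d1 on the opposite strand, and counting was without strand. Nr1d1, a clock repressor, fell in fasted controls (−0.24, adjusted p 0.000286).

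Thrb (chromosome 14, 17660960 to 18038088, plus strand), the second receptor gene, held a median of 25.2 CPM in fed and 24.3 CPM in fasted controls, a change of −0.02 on the log2 scale (interval −0.15 to 0.10, edgeR adjusted p 0.952). As for Trhr, the values of the 2 sets of controls had opposite signs. The means were 23.5 CPM fed and 26.4 CPM fasted in controls 1 to 5 (0.17, adjusted p 0.168), and 27.2 and 23.6 CPM in controls 6 to 10 (−0.21, adjusted p 0.127). Neither value was called, and the difference between them was (−0.38, adjusted p 0.0236 in edgeR), in a test that called 10.6% of all genes. In S662D mice the log2 fold change was −0.16 (adjusted p 0.415).

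**Figure D4:**
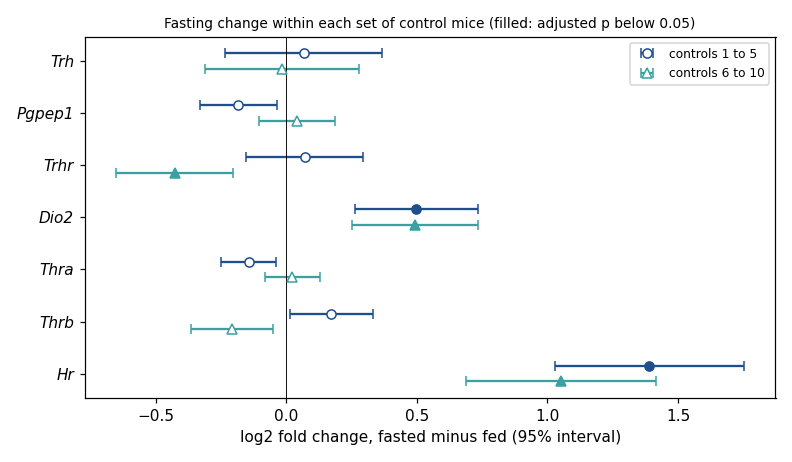
Log2 fold change on fasting within controls 1 to 5 (circles) and controls 6 to 10 (triangles), 5 fed and 5 fasted libraries each, with 95% intervals. Filled points have an adjusted p below 0.05. Hr and Dio2 rise in both sets, whereas Trh, Trhr, Thra, Thrb and Pgpep1 have values on opposite sides of 0. The difference between the sets was called for Trhr and Thrb only, in a test that called 10.6% of all genes.

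Dio3, the inactivating deiodinase (chromosome 12, 110279068 to 110281097, plus strand), was at the limit of detection. It had 0 counts in 7 of 35 libraries and 3 counts or fewer in 28. The summed counts were 27 over 10 fed controls, 23 over 10 fasted controls, 15 over 5 libraries labelled Per2 knockout, 14 over 5 fed S662D and 4 over 5 fasted S662D libraries. A floor of 3 counts corresponds to 0.0810 to 0.167 CPM, depending on the library, and covers counting error only. Fed S662D libraries 1 to 5 had 1, 3, 1, 6 and 3 counts, and fasted ones 0, 1, 1, 0 and 2. In CPM 4 of the 5 fasted libraries lay below all fed ones. Fitted without the filter on low counts, over 36082 genes, Dio3 was called in none of the 7 comparisons by edgeR. Fasting gave an adjusted p of 0.966 in controls and 0.527 in S662D mice (unadjusted 0.0589). Fasted S662D libraries, the group with the fewest counts, gave 0.317 against fasted controls (unadjusted 0.0352) and 0.234 against the labelled knockout (unadjusted 0.0196).

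The PER2-S662D mice were then compared with controls in each feeding state. Of the 7 tested members, 0 were called in fed mice, where 4.69% of all genes were, and 0 in fasted mice, where 5.57% were. The share over all genes depended on the library sets. With the additional digit as a term, 23 of 18063 genes were called in fed and 20 in fasted mice. With controls 6 to 10 as the only controls, 33 and 48 of 17812 were. In the fit of all libraries without that term, the members stood as follows. At an unadjusted p below 0.05 there were 0 and 1, the latter being Thra (p 0.0134 in edgeR). By p Thra ranked 1980 among the 18063 genes, so at least 1980 genes passed that threshold. Thra held 482.2, 501.7, 459.7, 458.8 and 505.2 CPM in fasted S662D libraries. Replicates 2 and 5 lay above every fasted control, and the other 3 lay within their range. Its log2 fold change was 0.12 (SE 0.05, edgeR adjusted p 0.122), with an interval of 0.03 to 0.22. Against controls 1 to 5 alone it was 0.18 and called (adjusted p 0.0234, where 11.2% of all genes were). In fed mice Thra differed by 0.05 (adjusted p 0.566).

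Fed Dio2 medians were 23.9 CPM in controls and 23.2 CPM in S662D mice, a log2 fold change of −0.01 with an interval of −0.24 to 0.22. In fasted mice it was 0.19 (interval −0.03 to 0.41, adjusted p 0.317). It reached 0.37 (adjusted p 0.0233, with 3148 of 18421 genes called) with the S662D libraries that carry the additional digit. Without fasted S662D replicate 1 the Dio2 value was 0.30 (edgeR adjusted p 0.0495), in a fit whose share of all genes called is not given here. It was −0.10 (adjusted p 0.997) with the S662D libraries lacking the digit, 0.00 with the digit as a term in the fit, and 0.07 against controls 1 to 5 alone (adjusted p 0.692). Hr differed by 0.17 fed (interval −0.17 to 0.52, adjusted p 0.606) and by 0.20 fasted (interval −0.13 to 0.53, adjusted p 0.521). The values for Trh were 0.17 fed (interval −0.08 to 0.42) and −0.06 fasted (interval −0.31 to 0.19). Trhr, Thrb and Pgpep1 lay between −0.05 and 0.09 in both states. These comparisons share control libraries with the fasting comparison.

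The libraries labelled Per2 knockout, all fasted, held high levels of both fasting-responsive members. Their Hr values were 128.3, 123.8, 134.5, 142.1 and 138.2 CPM, and their Dio2 values 36.9, 38.1, 38.1, 41.9 and 43.6 CPM. All lay above every fed control, from which these libraries differ in both feeding state and label. The share of all genes separated in this way was not computed. The SD was 7.42 CPM for Hr and 2.86 CPM for Dio2, against 13.5 and 1.53 CPM in fasted controls 1 to 5 and 28.0 and 7.17 CPM in fasted controls 6 to 10. Against fasted controls the log2 fold changes were 0.30 for Hr (interval −0.03 to 0.62, adjusted p 0.842) and 0.23 for Dio2 (interval 0.00 to 0.45, adjusted p 0.817) in edgeR. Of the 7 members 0 were called, where 0.0277% of all genes were, and only Dio2 passed an unadjusted threshold of 0.05 (p 0.0456 in edgeR). By p Dio2 ranked 974 among the 18063 genes, so at least 974 genes passed that unadjusted threshold. Split by set of controls, Hr differed by 0.07 from controls 1 to 5 and by 0.56 from controls 6 to 10 (adjusted p 0.976 and 0.0850), and Dio2 by 0.10 and 0.36 (adjusted p 0.961 and 0.0888), in comparisons that called 0.0221% and 1.59% of all genes. Trh (0.01), Thra (−0.02), Thrb (0.08), Trhr (0.09) and Pgpep1 (−0.13) were not called. Against fasted S662D mice 0 of the 7 were called, where 7.34% of all genes were, and Thra was lowest at −0.14 (adjusted p 0.107). Without replicate 3 of the labelled knockout, Thra was called there (−0.18, adjusted p 0.0412 in edgeR). The share of all genes called in that fit is not given here.

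**Figure D5:**
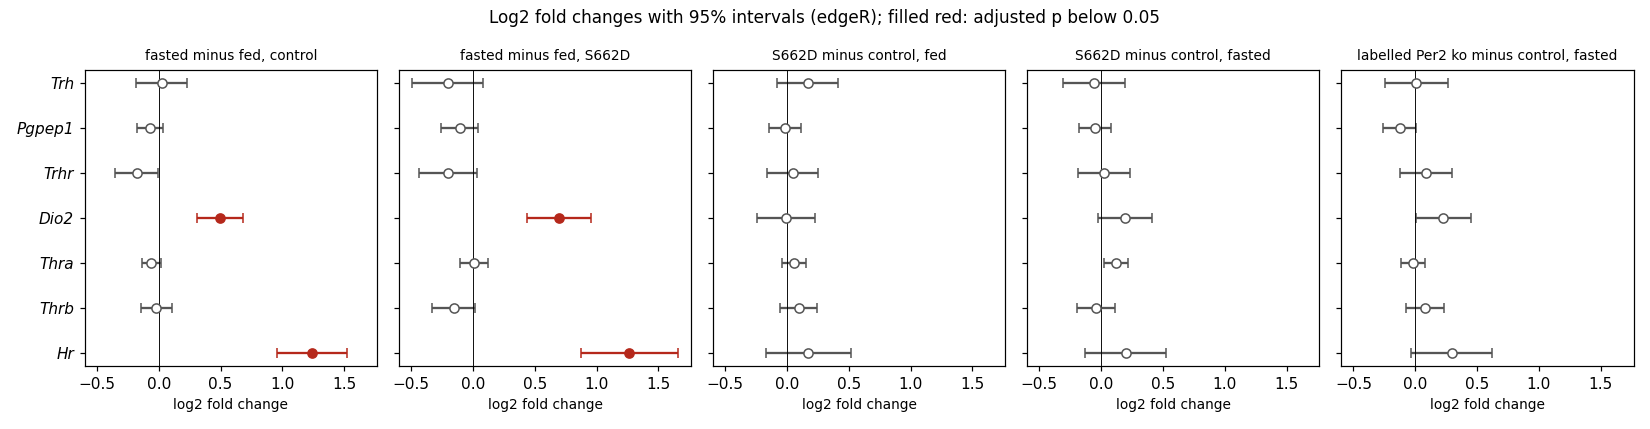
Log2 fold changes of the 7 tested genes in 5 comparisons, with 95% intervals from edgeR. Filled red points have an adjusted p below 0.05: Hr (1.24 and 1.27) and Dio2 (0.50 and 0.70) on fasting.

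Further genes of the pathway came from lists chosen for the tissue. Of 8 genes that transport thyroid hormone, Slc7a5, an amino acid and thyroid hormone carrier, rose on fasting in both genotypes. Its medians were 65.6 CPM in fed and 76.7 CPM in fasted controls, a log2 fold change of 0.23 (adjusted p 0.00214), and it rose by 0.38 in the mutants (adjusted p 0.000397). Slco1c1, a thyroxine carrier of brain vessels and astrocytes, was at −0.19 in controls and −0.30 in S662D mice and was not called (adjusted p 0.262 and 0.168). The list's median log2 fold change was 0.02 in controls and −0.19 in S662D mice, against 0.00 in both over all genes. Slc7a5 and Slc7a8 were also higher in fasted S662D mice than in fasted controls (0.19 and 0.21, adjusted p 0.0466 and 0.0485). Of 6 endothelial and meningeal markers 3 were called higher in that comparison and 0 lower: Cldn5 (0.46, adjusted p 0.00137), Flt1 (0.37, adjusted p 0.0047) and Pecam1 (0.28, adjusted p 0.0203). Their list summed to 120.9 to 172.9 CPM in fasted S662D mice and 109.2 to 129.4 CPM in fasted controls, and its part in these differences was not tested. The differences between fasted S662D and control mice in this paragraph are given only from the fit without the additional digit as a term. With that term 20 of 18063 genes were called.

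Of 8 genes that process or break down TRH, 1 was called on fasting in each genotype. Pcsk1, a convertase that cuts the TRH precursor, rose in controls (0.20, adjusted p 0.0239), and Qpct, which forms the pyroglutamyl residue, fell in S662D mice (−0.29, adjusted p 0.0126). Neither response was called as different between the genotypes (adjusted p 0.777 and 0.762). Among 12 receptor partners (retinoid X receptors, corepressors and coactivators), 0 were called on fasting in either genotype. Of 7 thyrotropin and pars tuberalis genes 5 had enough counts, and 0 were called in any comparison. Tshb, the thyrotropin subunit, had medians of 1.68 CPM in fed and 1.80 CPM in fasted controls, and its receptor Tshr 0.959 and 0.760 CPM.

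Beside Hr, 7 other genes known to respond to triiodothyronine in brain were listed, and 2 were called on fasting in controls, in opposite directions. Klf9, a transcription factor, rose in both genotypes, by 0.32 in controls (adjusted p 0.000101) and by 0.44 in mutants (adjusted p 0.000246), and Klf9 is known to be induced by glucocorticoids too. Dbp, also a clock output gene, fell in fasted controls (−0.33, adjusted p 0.0434) and was lower in S662D mice than in controls, fed (−0.65) and fasted (−0.57). Camk4 was higher in S662D mice, by 0.32 fed and 0.24 fasted. For Dbp and Camk4 these S662D differences are given only from the fit without the additional digit as a term. The median of the list was −0.05 in fasted controls and −0.13 in fasted S662D mice. Among 12 genes that mark or act on TRH neurons, Npy (0.39) and Agrp (0.61), peptides of the arcuate hunger neurons that inhibit TRH neurons, rose in fasted controls, and the glucocorticoid receptor gene Nr3c1 fell in controls (−0.25) and S662D mice (−0.33). In S662D mice Npy was at 0.38 (adjusted p 0.0786) and Agrp at 0.13 (adjusted p 0.840), and neither response was called as different between the genotypes (adjusted p 0.991 and 0.797). Sim1, which specifies paraventricular neurons, was at −0.01 in controls (adjusted p 0.990).

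The genes most like each member were found by the correlation of log2 CPM after the group means were subtracted, over 35 libraries and among 15478 genes. Nearest to Hr were Mfsd2a (r = 0.924), Plin4 (0.916) and Cdkn1a (0.900), and nearest to Dio2 were Cdkn1a (0.808), Gm42644 (0.803) and Tsc22d3 (0.801). Each of these 5 genes was called higher on fasting in both genotypes, Cdkn1a most (2.64 in controls and 2.61 in S662D mice). Trh went with Ngb (0.795), Ecel1 (0.789) and the oxytocin gene Oxt (0.755), none of them called on fasting. Trhr went with Gabrg1 (0.799), Ubxn2b and Gad2 (both 0.706). Thra went with Rpl8 (0.917), Sqstm1 (0.908) and Hdac11 (0.905), and Thrb with Xpr1 (0.826), Gnaq (0.821) and Pgm2l1 (0.820). The 2 receptor genes ran against each other (r = −0.638). Pgpep1 went with Uap1l1 (0.737) and Tonsl (0.732).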

How the data were processed

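Per the file headers, the authors deposited raw counts of fragments per gene name, made with featureCounts 2.0.1 against GENCODE vM12 (mm10), counting every alignment of multi-mapping reads and using no strand option; STAR 2.7.10b is named in the submitters' processing notes. Of the 8 members, Thra and Dio2 share exon bases with another gene (5.7% and 1.72%). Total counts were 17959586 to 37027342 per library. Groups came from the sample titles. No 2 libraries were identical. Replicate numbers were not taken to pair the samples.

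Genes were filtered with edgeR 4.0.16 (filterByExpr, minimum count 10), which left 18063, and scaled with TMM. All 35 libraries entered 1 quasi-likelihood fit with a mean per group (R 4.3.3), checked on simulated data. P-values were adjusted over all genes, with calls at 0.05. Standard errors and 95% intervals came from the F statistic. CPM is edgeR's cpm. DESeq2 1.42.0 was an alternative. Named genes were the 8 members, Per2, called genes of the lists (at most 4 per list and comparison), the 3 genes most like each member, and genes overlapping a member; markers, and the uncalled list genes given values (Slco1c1, Sim1, Tshb, Tshr), were picked after their values were seen. Some genes that this rule names are not reported here. Members and lists were chosen with earlier results of these data known.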

Additional observations from a re-analysis of the deposited data

Results flagged for a closer look

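In the libraries labelled Per2 knockout, replicate 4 held 12.9 CPM of Pgpep1, while the other 4 held 15.3 to 15.7 CPM. Its gap to the next library, divided by the range of the group, was 0.866, above Dixon's 95% critical value of 0.710 for 5 samples. This was the only library so far from its group among 40 combinations of 8 genes and 5 groups, and chance flags about 1 in 20. No member's fasting response was called as different between the genotypes.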

How the results depend on the processing

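Among 51 other settings, 35 of which left out 1 library, 2373 member values were recomputed. Of these 2244 kept their direction and side of the threshold, 117 changed sign while called in neither fit, 5 lost and 7 gained a call, and 0 called values changed sign. Hr and Dio2 kept their rise in controls in every setting run except that Dio2 missed the threshold in controls 6 to 10 alone (0.49, adjusted p 0.0514). In S662D mice, 0 members were called on fasting with the libraries without the additional digit, fitted alone or as a group of their own, which left 2 libraries a group. S662D against control, fasted, gave 1 called member with controls 1 to 5 alone or as a group of their own (Thra), 1 with the S662D libraries carrying the digit (Dio2), and 0 to 1 when 1 library was left out (Dio2 without fasted S662D replicate 1). The labelled knockout against S662D gave 0 to 1 when 1 library was left out (Thra without labelled knockout replicate 3). The cause of these changes was not tested. For the fits that left out 1 library, the share of all genes called is not given here.

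Same-numbered samples varied together little or not at all (correlations of −0.191 to 0.059 over 10 control pairs and −0.109 to 0.160 over 5 S662D pairs). The highest S662D values were those of replicates 5 (0.160) and 1 (0.142), whose fed and fasted libraries all lack the additional digit. Of the 5 S662D pairs, 1 was best matched by its own number. The numbers were not taken as pairs. With the replicate number as a block, Hr changed by 1.21 and 1.25 and Dio2 by 0.49 and 0.69 on fasting in control and S662D mice, and no member's call changed. For S662D against control, fasted, the block moved Dio2 from 0.19 to 0.06, called in neither. Dio3, with 0 to 9 counts per library, was called in no comparison without the filter on low counts.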
